A study of Mus musculus with 6 samples.

Results

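Surface molecules that macrophages use to stimulate, restrain or touch other immune cells were measured at the RNA level in RAW 264.7 cells. The 10 genes were chosen by symbol from a list of costimulatory and checkpoint molecules, and all 10 had an entry among the 23282 gene entries of each count table. These cells are a macrophage line from mouse, able to turn into osteoclasts, the cells that resorb bone. The CPN group held 3 RAW 264.7 samples labelled CPN and taken at day 5 of osteoclast differentiation. The control group held 3 RAW 264.7 samples labelled control and taken at the same day of the same process. The series is titled for chaperonin of 60 kDa, but the labels do not spell out CPN or give its source, dose or time of addition. Nothing in the labels ties the samples to separate cultures, and the p-values below therefore reflect only the spread among these libraries, which may be technical.

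T cells need a costimulatory signal beside antigen to become fully active. CD80 and CD86 give it by binding CD28 and withdraw it by binding CTLA-4, and ICOS ligand acts through ICOS. PD-L1 and PD-L2, the products of Cd274 and Pdcd1lg2, bind PD-1 and restrain T cells. CD200 and CD47 are ligands that quiet myeloid cells through the receptors CD200R1 and SIRPα, the second pair being the signal that stops macrophages from engulfing healthy cells. ICAM-1 is the adhesion molecule that binds the integrin LFA-1. In the osteoclast lineage, CD47, SIRPα and CD200 are also known to act in the fusion of precursor cells.

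Cd274, Cd200r1 and Cd47 were higher in CPN cells, none of the genes passed as lower, and Pdcd1lg2 was too low to test. The counts are from 3′-end sequencing (QuantSeq) and are given as CPM, the counts per 1e+06 counts of the library after TMM scaling, which assumes that most genes do not change. The quasi-likelihood test of edgeR set CPN against control, p-values were adjusted by the Benjamini-Hochberg method over all 11092 genes tested, and the threshold on the adjusted p was 0.05. Of the 9 genes that could be tested, 3 were higher and 0 were lower, where 14.0% of all tested genes passed in either direction, 7.62% as higher and 6.39% as lower. At an unadjusted edgeR p of 0.05 the count was also 3 of 9, against 26.3% of all tested genes. CPN stood wholly above control for 4 genes and wholly below for 1, where 16.9% and 15.7% of all tested genes did so. Their median log2 fold change was 0.79, against -0.01 over all tested genes. This median includes Cd86 and Icosl, which entered the test through their CPN values, and Icosl is 1 of the 4 genes above. Neither value is therefore support for a shift of the 9 genes as a group. Library totals were between 8267719 and 8423438 counts in CPN and between 7957228 and 9713938 in control. In these bulk samples, fewer cells that express a gene and less of its RNA per cell cannot be told apart.

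**Figure D1:**
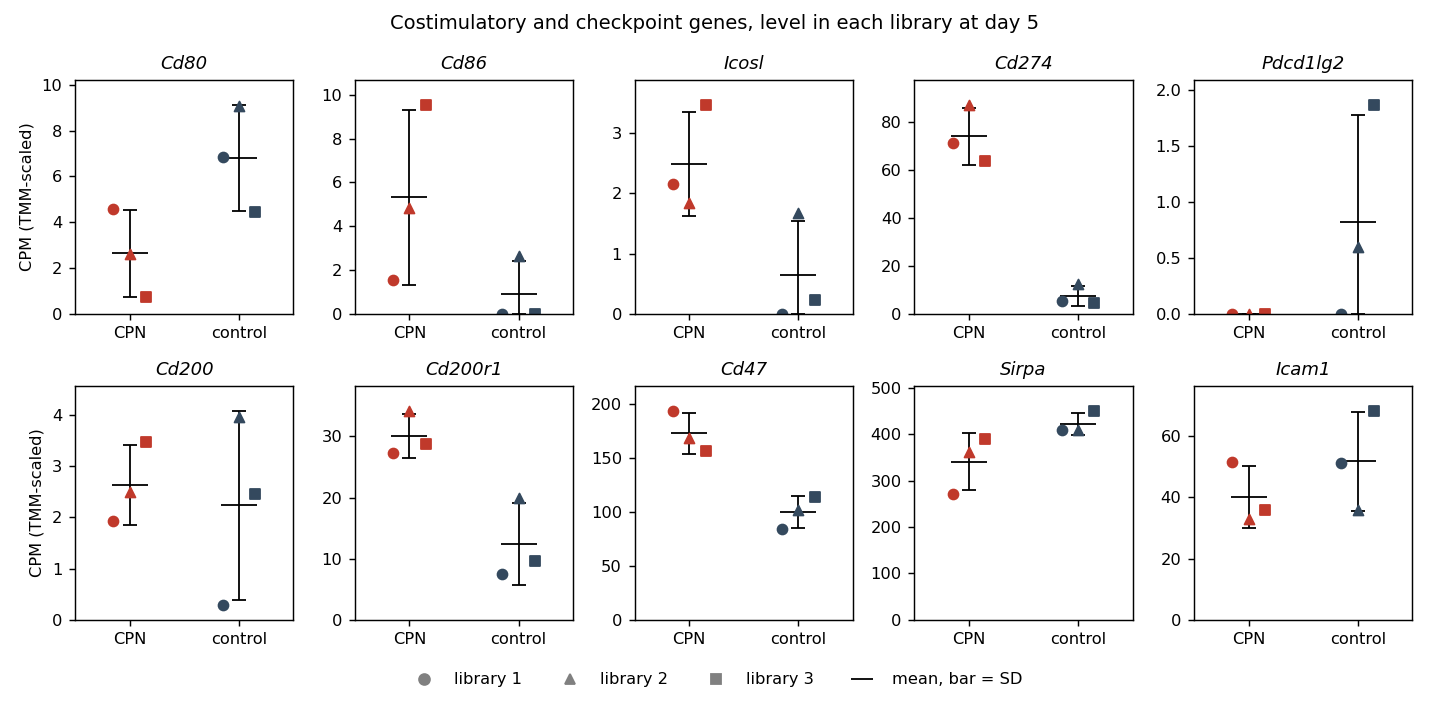
Level of each of the 10 genes in CPM (vertical axis, linear from 0) in the 3 CPN libraries, drawn at the left of each panel, and the 3 control libraries. Points are libraries, horizontal marks are means and bars are SD, cut at 0 where the SD exceeds the mean; the 2 groups stand fully apart for Icosl, Cd274, Cd200r1, Cd47 and Sirpa.

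Several of these genes were scarce, and scarce genes were noisy here. For 707 genes averaging 6 to 12 counts per library, zeros made up 14.0% to 41.2% of the values in CPN libraries and 23.8% to 39.9% in control libraries, where Poisson sampling at 6 counts gives 0.248%. CPN 1 and control 3 had the fewest such zeros in their groups. Cd80, Cd86, Icosl, Cd200 and Pdcd1lg2 had at most 184 counts over any group, so their values may carry such error. It was measured only at 6 to 12 counts per library, and its size at their levels was not tested. Cd274 was close to that limit in control, with 194 counts over the group. A floor of 3 counts corresponded to between 0.36 and 0.393 CPM in CPN and between 0.294 and 0.359 CPM in control. The last 500 transcript bases of each gene, the stretch that 3′-end reads come from, shared no run of 50 bases with a transcript of another gene in the same direction. The search did not cover antisense sharing, which the last exon of Icam1 has.

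The costimulatory ligands of the B7 family gave no call. Cd80 (chromosome 16, 38455561 to 38496335, plus strand, GRCm38) had 4.56, 2.62 and 0.744 CPM in CPN 1 to 3, against 6.87, 9.10 and 4.44 CPM in control 1 to 3. CPN 1 lay just above control 3, and the other CPN libraries lay below every control. The log2 fold change was -1.36 ± 0.800 (SE), with an edgeR adjusted p of 0.32. Without CPN 1 it was -2.01, or 4.03-fold lower, and did not pass (edgeR adjusted p = 0.242). Cd86 (chromosome 16, 36603869 to 36666081, minus strand), the second ligand of CD28, pointed the other way. It had 13, 37 and 77 counts, or 1.56, 4.85 and 9.55 CPM, in CPN 1 to 3, against 0, 22 and 0 counts, or 0, 2.63 and 0 CPM, in control 1 to 3. Control 2 held every control count of this gene and lay above CPN 1. The log2 fold change was 2.60 ± 1.45 (SE), with an edgeR adjusted p of 0.289. Without control 2, Cd86 was at least 16.5-fold higher in CPN, against a floor of 3 counts per library, and passed at an edgeR adjusted p of 0.00744, so that 1 library set the call.

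Icosl (chromosome 10, 78069302 to 78083913, plus strand), which encodes ICOS ligand, had 2.16, 1.83 and 3.47 CPM in CPN 1 to 3, against 0, 1.68 and 0.234 CPM in control 1 to 3. Every CPN library lay above every control, though CPN 2 was close to control 2. Groups that did not overlap were common, at 32.6% of all tested genes, and Icosl did not pass (log2 fold change 1.96 ± 1.39, SE; edgeR adjusted p = 0.419). Cd86 and Icosl had 22 and 16 counts over all 3 controls and entered the test through their CPN values, so their place among the tested genes is no support for a difference. Without control 2, the log2 fold change of Icosl was 4.32 and its edgeR adjusted p was 0.132.

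PD-L1 had the clearest difference. Cd274 (chromosome 19, 29367455 to 29388095, plus strand) had 594, 667 and 516 counts in CPN 1 to 3, against 54, 102 and 38 counts in control 1 to 3. In CPM these were 71.3, 87.4 and 64.0 in CPN, against 5.30, 12.2 and 4.44 in control. Every CPN library stood far above the highest control, which was control 2. Cd274 rose 10.2-fold (log2 fold change 3.35 ± 0.367, SE; edgeR adjusted p = 7.05e-05; n = 3 per group), a change larger in size than that of 98% of tested genes. With any library left out it passed, with log2 fold changes between 3.09 and 3.94, the highest without control 2 (15.3-fold). Without both CPN 1 and control 3 it was 3.12 (edgeR adjusted p = 0.00709).

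Pdcd1lg2 (chromosome 19, 29410919 to 29471161, plus strand), the gene of PD-L2, starts 22823 bases beyond the end of Cd274 and was barely detected. It had 0 counts in each CPN library, against 0, 5 and 16 counts, or 0, 0.599 and 1.87 CPM, in control 1 to 3. It failed the filter on low counts. Set against a floor of 3 counts per library, its mean in CPN was at least 2.19-fold lower than in control, but control 1 was also at 0. When the filter was dropped, Pdcd1lg2 did not pass (edgeR adjusted p = 0.222). The gene on the other side of Cd274, Plgrkt, lies 64 bases from it. Plgrkt averaged 56.8 CPM in CPN, against 41.1 CPM in control, short of the threshold (edgeR adjusted p = 0.255). Jak2, a kinase of the interferon-γ receptor, lies 54374 bases before Cd274 and rose 3.86-fold. Exons of Cd274 share 511 bases with an antisense transcript that has no entry in the tables, and 0 of them lie in the last exon of any Cd274 transcript.

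The promoter windows of these genes are shown because PD-L1 and PD-L2 are neighbours with unlike values, and because ICAM-1 and PD-L1 are both known targets of interferon and NF-kB signalling. Each runs from 250 bases before to 50 bases after the RefSeq start of the gene (GRCm38.p6), 5′ to 3′ along the gene, with matches to 3 motifs in capitals. The motifs were searched on both strands. The interferon-stimulated response element was taken as a pair of GAAA copies with 2 bases of any kind between them. The STAT site GAS was taken as TTCNNNGAA. For NF-kB the pattern was GGGRNWYYCC, where R is A or G, W is A or T, Y is C or T and N is any base. Only exact matches were counted.
Cd274 (chr19:29367188-29367487, plus strand): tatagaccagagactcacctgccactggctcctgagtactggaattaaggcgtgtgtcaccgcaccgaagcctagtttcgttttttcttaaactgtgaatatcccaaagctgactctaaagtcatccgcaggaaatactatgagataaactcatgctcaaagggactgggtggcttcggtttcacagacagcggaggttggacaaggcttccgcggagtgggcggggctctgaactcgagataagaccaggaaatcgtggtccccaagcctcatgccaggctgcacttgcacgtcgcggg
Pdcd1lg2 (chr19:29410669-29410968, plus strand): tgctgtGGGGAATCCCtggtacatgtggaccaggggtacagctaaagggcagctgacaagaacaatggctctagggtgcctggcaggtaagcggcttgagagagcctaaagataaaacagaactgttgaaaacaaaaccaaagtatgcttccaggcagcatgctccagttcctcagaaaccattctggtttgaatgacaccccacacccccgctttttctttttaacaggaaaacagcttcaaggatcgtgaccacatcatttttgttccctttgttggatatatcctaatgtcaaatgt
Icam1 (chr9:21015690-21015989, plus strand): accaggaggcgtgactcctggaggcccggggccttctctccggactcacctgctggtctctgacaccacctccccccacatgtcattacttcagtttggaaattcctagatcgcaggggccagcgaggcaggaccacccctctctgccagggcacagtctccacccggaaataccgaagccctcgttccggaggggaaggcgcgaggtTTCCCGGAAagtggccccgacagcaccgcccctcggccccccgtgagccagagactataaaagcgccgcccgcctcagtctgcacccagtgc

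The Cd274 window held no exact match to the 3 motifs. Sites that depart from these patterns were not searched for, so a window without a match may still hold one. The Pdcd1lg2 window held an NF-kB match that begins 244 bases before the start, GGGGAATCCC, and the Icam1 window held a GAS match that begins 42 bases before the start, TTCCCGGAA. Over all 32851 promoter windows in the RefSeq table, 3.44% held the response element, 8.3% the GAS motif and 4.51% the NF-kB motif. Windows were found for 7 of the 10 genes, and those of Cd80, Icosl, Cd200 and Cd47 held no match to any of the motifs. The Cd80 window (38458683 to 38458982) and the Cd47 windows (from 49855404 and from 49855411) lie wholly inside the gene spans given here. They do not cover the starts of those spans. Cd86, Cd200r1 and Sirpa were not in the table.

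Genes known to control PD-L1 were called at a share near that of all genes. Of 25 genes, covering JAK and STAT signalling, NF-kB, and factors that stabilise or degrade the protein, all were tested, 3 rose and 0 fell. That is 12% called, near the 14.0% of all tested genes, with a median log2 fold change of 0.28. Jak2 averaged 43.2 ± 16.5 CPM in CPN, against 11.2 ± 2.40 CPM in control (SD, n = 3; edgeR adjusted p = 0.00229). Stat3, a transcription factor of IL-6 and IL-10 signalling, averaged 178 ± 26.3 CPM in CPN, against 86.3 ± 20.8 CPM in control (edgeR adjusted p = 0.00524). Ifnar2, a chain of the type I interferon receptor, averaged 199 ± 21.2 CPM in CPN, against 104 ± 15.9 CPM in control (edgeR adjusted p = 0.00463). The fourth smallest p was that of Myc, which did not pass (log2 fold change 1.23 ± 0.436, edgeR adjusted p = 0.0827). Under DESeq2, Myc passed (adjusted p = 0.0452) and 4 of the 25 genes were higher. Irf1, a transcription factor of the interferon-γ route to PD-L1, had a log2 fold change of -0.27 and did not pass (edgeR adjusted p = 0.622). Without both CPN 1 and control 3, 0 of these genes passed, and without control 2, 5 were higher.

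**Figure D2:**
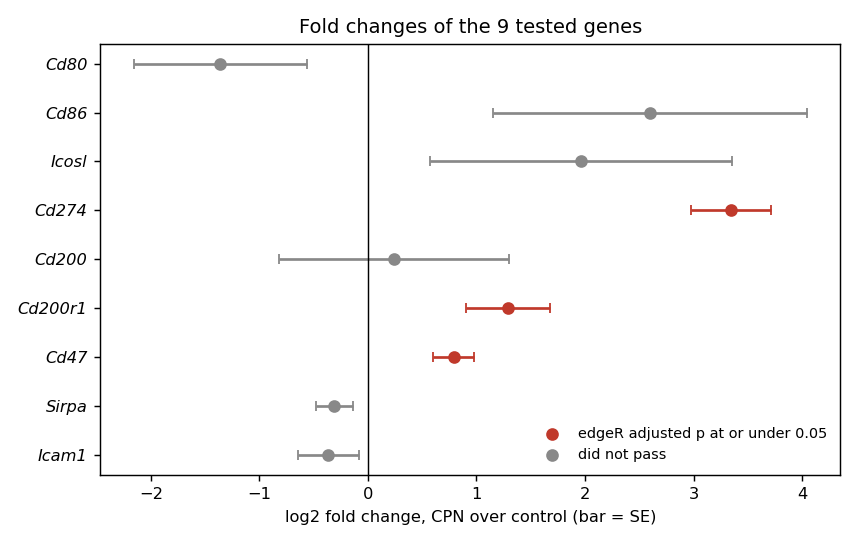
Log2 fold change of CPN over control (horizontal axis) for the 9 tested genes, with bars of 1 SE from edgeR; red points passed an adjusted p of 0.05. Cd274, Cd200r1 and Cd47 lie to the right of 0 with short bars, while Cd80, Cd86, Icosl and Cd200 have bars of 0.800 or more.

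Of the CD200 pair, the receptor rose and the ligand gave no call. Cd200 (chromosome 16, 45382135 to 45409053, minus strand) had 1.92, 2.49 and 3.47 CPM in CPN 1 to 3, against 0.294, 3.95 and 2.45 CPM in control 1 to 3. The CPN values all lay within the control range, and the log2 fold change was 0.24 ± 1.06 (SE; edgeR adjusted p = 0.923). Cd200r1 (chromosome 16, 44765736 to 44794978, plus strand), the inhibitory receptor on myeloid cells, had 27.4, 34.2 and 28.8 CPM in CPN 1 to 3, against 7.46, 20 and 9.58 CPM in control 1 to 3. Every CPN library lay above every control, and control 2 was again the highest control. Cd200r1 rose 2.44-fold (log2 fold change 1.29 ± 0.386, SE; edgeR adjusted p = 0.0415). The call was close to the threshold: it ended without CPN 1, CPN 2, CPN 3, control 1 or control 3, at edgeR adjusted p between 0.092 and 0.153, and with library totals alone (0.0537). Without control 2 the change was 3.58-fold (edgeR adjusted p = 0.00176).

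The gene next to Cd200r1, Cd200r4, also rose. Cd200r4 encodes an activating relative of the receptor that signals through the adaptor DAP12, and it lies 16754 bases from Cd200r1. It averaged 15.5 ± 7.63 CPM in CPN, against 0.991 ± 0.614 CPM in control (SD, n = 3), a 15.3-fold rise (edgeR adjusted p = 0.00195), or 23.3-fold without control 1. Cd200r3, another activating relative, had 10, 23 and 15 counts in CPN 1 to 3 and 0 in each control library, which makes it at least 6.05-fold higher in CPN against the floor; it was too low to test. Tyrobp, the gene of DAP12 itself, fell 1.65-fold (edgeR adjusted p = 0.00602). In the list of CD200R relatives and signalling partners, 1 of 7 tested genes rose and 1 fell, with a median log2 fold change of -0.21. The called share was 28.6%, against 14.0% of all tested genes. Cd200r4, with 17, 7 and 4 counts in control 1 to 3, entered the test through its CPN values. The gene that fell was Inpp5d, the lipid phosphatase SHIP1, with 32.1 ± 2.47 CPM in CPN, against 62.0 ± 6.95 CPM in control (edgeR adjusted p = 0.0113). Its call ended without control 3 (edgeR adjusted p = 0.0757). Dok1 and Dok2, the adaptors that CD200R1 binds when it signals, had log2 fold changes of -0.25 and -0.24 and did not pass (edgeR adjusted p = 0.607 and 0.579).

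Of the CD47 pair, the ligand rose and the receptor gave no call. Cd47 (chromosome 16, 49800533 to 49915010, plus strand) had 193, 169 and 156 CPM in CPN 1 to 3, against 84.5, 101 and 114 CPM in control 1 to 3. The groups stood apart, and Cd47 rose 1.73-fold (log2 fold change 0.79 ± 0.187, SE; edgeR adjusted p = 0.0132). The call ended without CPN 1 (edgeR adjusted p = 0.0571) or without control 1 (0.0674), with log2 fold changes of 0.70 and 0.68. Sirpa (chromosome 2, 129592835 to 129632228, plus strand), the receptor of CD47, had 272, 361 and 391 CPM in CPN 1 to 3, against 409, 409 and 451 CPM in control 1 to 3. All 3 CPN libraries lay below all controls, though CPN 3 was close to control 1 and control 2. Sirpa did not pass (log2 fold change -0.31 ± 0.172, SE; edgeR adjusted p = 0.287).

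Partners of this pair and other signals that govern engulfment split in direction: of 13 tested genes, 4 were higher and 3 lower in CPN, with a median log2 fold change of -0.06. This made 53.8% called, against 14.0% of all tested genes, in a list chosen with earlier results known. Qpct, at 0 in each control library, and Cd24a, at 0 in each CPN library, entered the test through the group where they were high. This share is therefore no support for a difference of the list. Lilrb4a, an inhibitory receptor of myeloid cells, rose 5.78-fold to 929 ± 175 CPM in CPN, against 161 ± 33.4 CPM in control (edgeR adjusted p = 9.27e-06). Part of Lilrb4a overlaps a gene model with no entry in the tables, and it has close relatives, so its count is uncertain. Fyb, an adaptor that sits downstream of integrins and SIRPα, rose 3.35-fold (edgeR adjusted p = 3.39e-05). Calr, whose product calreticulin acts as a signal for engulfment when exposed at the surface, rose 2.75-fold to 3016 ± 252 CPM in CPN, against 1096 ± 340 CPM in control (edgeR adjusted p = 0.00047).

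Qpct, the secreted glutaminyl cyclase, had 45, 137 and 158 counts in CPN 1 to 3 and 0 in each control library, which makes it at least 42.8-fold higher in CPN (edgeR adjusted p = 0.000367). Qpctl, the Golgi relative known to modify CD47 so that SIRPα can bind it, averaged 9.24 ± 3.63 CPM in CPN, against 3.06 ± 2.87 CPM in control (edgeR adjusted p = 0.347). The genes that fell were Ptpn6, Lrp1 and Cd24a. Ptpn6, the phosphatase SHP-1 that SIRPα recruits, averaged 126 ± 23.8 CPM in CPN, against 273 ± 55.7 CPM in control (edgeR adjusted p = 0.00309), while Ptpn11, the related SHP-2, did not pass (log2 fold change 0.18, edgeR adjusted p = 0.756). Lrp1, a receptor for calreticulin, fell 2.23-fold (edgeR adjusted p = 0.000657). Cd24a, another signal against engulfment, was at 0 in each CPN library, against 20, 67 and 12 counts in control 1 to 3. It was at least 10.1-fold lower in CPN (edgeR adjusted p = 0.0186), and without control 2 this bound was 4.49 and the call ended (edgeR adjusted p = 0.0758). Its call also ended without CPN 1, CPN 2 or CPN 3, at edgeR adjusted p up to 0.0654, under limma-voom (adjusted p = 0.0556) and with the replicate block (0.0722).

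**Figure D3:**
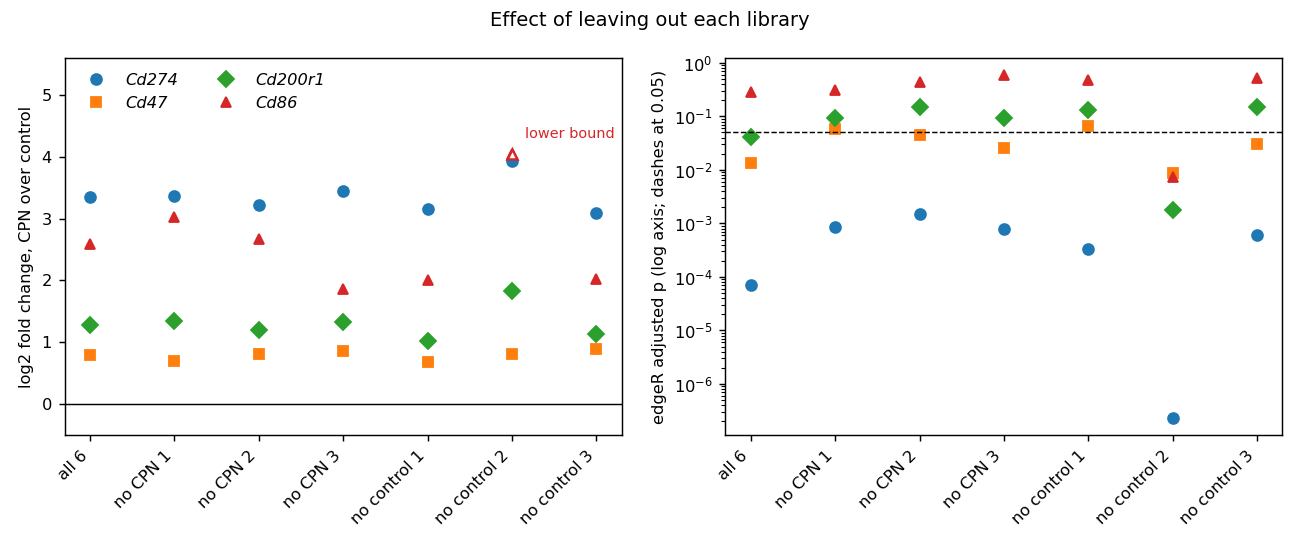
Log2 fold change of CPN over control (left) and edgeR adjusted p on a log axis (right) for Cd274, Cd47, Cd200r1 and Cd86, with all 6 libraries and with each library left out. Cd274 stayed under 0.05 throughout, Cd86 passed without control 2, where its open symbol is a lower bound, and Cd200r1 and Cd47 crossed the dashed line.

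Icam1 (chromosome 9, 21015985 to 21028817, plus strand) did not differ beyond the spread of its libraries. It had 51.6, 32.9 and 36.0 CPM in CPN 1 to 3, against 51.1, 35.8 and 68.1 CPM in control 1 to 3. The groups overlapped, and the log2 fold change was -0.36 ± 0.281 (SE; edgeR adjusted p = 0.467). In its last exon, 511 bases are shared with an antisense transcript that has no entry in the tables, so reads from either strand may be counted there. Its neighbour Icam4 lies 555 bases beyond and averaged 1.88 CPM in CPN, against 1.23 CPM in control (edgeR adjusted p = 0.851).

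Of 18 tested adhesion genes, 2 rose and 2 fell, with a median log2 fold change of 0.02. The called share was 22.2%, against 14.0% of all tested genes, and Itgax entered the test through its control values. Itgam, the chain of the Mac-1 integrin that also binds ICAM-1, averaged 239 ± 58.0 CPM in CPN, against 60.7 ± 6.34 CPM in control (SD, n = 3; edgeR adjusted p = 5.44e-05). Itgal, the LFA-1 chain, averaged 13.4 CPM in CPN, against 4.12 CPM in control, short of the threshold (edgeR adjusted p = 0.131), and passed without control 2 (0.00355), under limma-voom (0.0475) and with no filter on low counts (0.049). Msn, which encodes moesin, a link between surface molecules such as ICAM-1 and the actin skeleton, rose to 466 ± 31.0 CPM in CPN, against 233 ± 16.2 CPM in control (edgeR adjusted p = 0.00087). Itgax, the integrin chain CD11c, averaged 1.08 ± 0.838 CPM in CPN, against 21.4 ± 3.56 CPM in control (edgeR adjusted p = 0.000852). Itga4, the VLA-4 chain, fell 3.33-fold (edgeR adjusted p = 3.72e-05).

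Among other costimulatory and coinhibitory molecules, Cd40 and Lgals9 had the largest fold changes of the genes tested. Of 25 listed genes, 9 had no count in any library and 12 were tested, of which 4 rose and 2 fell, with a median log2 fold change of 0.20. This made 50% called, against 14.0% of all tested genes, in a list chosen with earlier results known. Cd40 and Lgals9, with 1 and 11 counts in control 1, entered the test through their CPN values, so this share is no support for a difference of the list. Cd40, the receptor through which T cells license antigen-presenting cells, had 46.9, 38.4 and 35.7 CPM in CPN 1 to 3, against 0.0981, 6.11 and 0.584 CPM in control 1 to 3. Cd40 rose 18.1-fold (edgeR adjusted p = 0.00435), and control 2 was the highest control here too. Without control 2 the rise was 120.0-fold and without control 1 it was 12-fold. Lgals9, the gene of galectin-9, averaged 38.5 ± 6.33 CPM in CPN, against 3.77 ± 2.89 CPM in control, a 10.3-fold rise (edgeR adjusted p = 0.00087), or 17.6-fold without control 2. Ceacam1, an inhibitory adhesion receptor, averaged 18.5 ± 3.96 CPM in CPN, against 3.12 ± 0.966 CPM in control (edgeR adjusted p = 0.00297).

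Tnfsf9, the ligand of the T cell receptor 4-1BB, rose 3.37-fold, and its call ended without CPN 1, CPN 2, CPN 3 or control 3 (edgeR adjusted p up to 0.0798), while without control 1 the rise was 5.1-fold. Among the genes that fell was the one entered as 4632428N05Rik, which encodes the checkpoint molecule VISTA. It had 48.0, 81.1 and 76.5 CPM in CPN 1 to 3, against 159, 121 and 165 CPM in control 1 to 3 (edgeR adjusted p = 0.00604). Havcr2, the gene of TIM-3, a receptor of galectin-9, averaged 7.14 ± 1.96 CPM in CPN, against 19.1 ± 4.93 CPM in control (edgeR adjusted p = 0.0372). The Havcr2 call ended when any library was left out (edgeR adjusted p up to 0.123) and with the replicate block (0.0727). Cd83, a surface molecule of activated dendritic cells, had a log2 fold change of -0.25 and did not pass (edgeR adjusted p = 0.625).

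**Figure D4:**
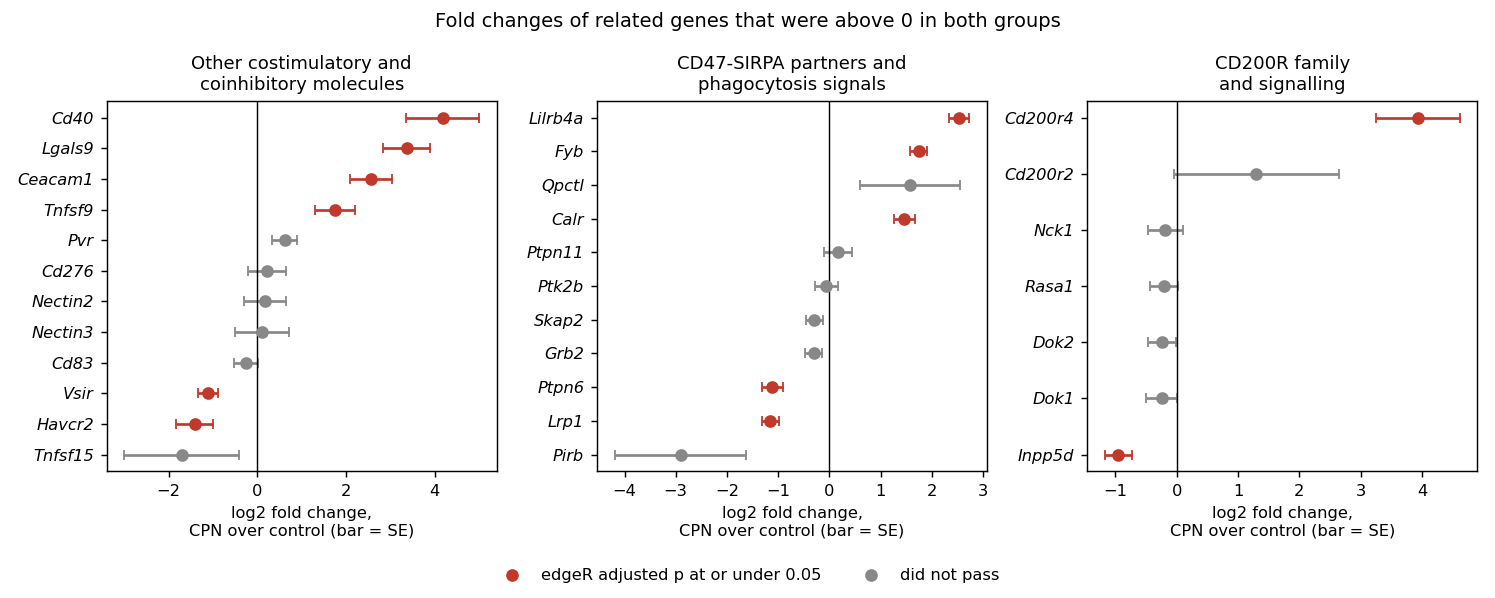
Log2 fold change of CPN over control (horizontal axes, bars of 1 SE from edgeR) for the tested genes of 3 related lists, leaving out Qpct and Cd24a, which were at 0 in each library of one group. Red points passed an adjusted p of 0.05; Cd40 and Lgals9 lead the left panel, and Ptpn6 and Lrp1 fell in the middle panel.

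Antigen presentation, the signal that costimulation accompanies, gave 4 higher and 1 lower of 15 tested genes, with a median log2 fold change of 0.63. In this list, chosen with earlier results known, 33.3% were called, against 14.0% of all tested genes. Cd74, the class II invariant chain, averaged 270 ± 53.3 CPM in CPN, against 92.4 ± 15.5 CPM in control (edgeR adjusted p = 0.000263). The class II genes H2-Aa, H2-Eb1 and H2-DMa did not pass (log2 fold changes -1.79, -0.505 and -0.359, edgeR adjusted p = 0.422, 0.754 and 0.774). The class I genes H2-D1 and B2m rose 2.04-fold and 1.54-fold (edgeR adjusted p = 0.001 and 0.00913), and H2-D1 can share reads with other class I genes. H2-K1 and H2-T23, also class I genes, did not pass (log2 fold changes 0.758 and -0.18, edgeR adjusted p = 0.056 and 0.897). The B2m call ended without control 1 or control 3 (edgeR adjusted p up to 0.0681). Tap1 also rose, 2.90-fold (edgeR adjusted p = 0.0313), or 4.39-fold without control 1. Its call ended without CPN 2, CPN 3 or control 3 (edgeR adjusted p up to 0.129) and with the replicate block (0.061). Ctss, the protease that trims the invariant chain, fell 1.96-fold (edgeR adjusted p = 0.00191). The number of higher genes was 7 under DESeq2 or with no filter on low counts, and 2 without control 3, and the number of lower genes was 2 without CPN 1.

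The receptors that T cells carry for these ligands were near 0, as were lymphocyte markers, with some exceptions. Of 22 such genes, 10 had no count in any library, among them Ctla4, Cd3g, Cd8a, Ms4a1 and Cd79b. Their summed level was between 20.1 and 32.5 CPM in CPN and between 10 and 17.4 CPM in control. Lck, a SRC family kinase of T cells, made up most of the CPN sum, with 21.1 ± 5.77 CPM in CPN, against 4.61 ± 2.48 CPM in control (edgeR adjusted p = 0.0122), and its call ended without CPN 1 (0.0539) or CPN 2 (0.0675). Cd28 had 1, 1 and 8 counts in CPN 1 to 3, against 53, 24 and 42 counts in control 1 to 3, and did not pass (edgeR adjusted p = 0.0784). It passed without CPN 3 (edgeR adjusted p = 0.0481) and under DESeq2 (adjusted p = 0.0176). Pdcd1, the gene of PD-1, had 2, 0 and 0 counts in CPN 1 to 3, against 16, 11 and 15 counts in control 1 to 3, and did not pass (edgeR adjusted p = 0.137). Icos had 0 counts in each CPN library, and its 26 control counts all lay in control 3. Cd247 and Cd8b1 had up to 19 and 35 counts in a CPN library and up to 6 and 2 in a control library.

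Of the markers of dendritic cells, granulocytes, stromal, epithelial and endothelial cells, the summed level was between 32.4 and 51.0 CPM in CPN and between 2.94 and 6.83 CPM in control. The sum rested on S100a8, at 23.7 ± 9.41 CPM in CPN, against 0.039 ± 0.0675 CPM in control, and Dcn, at 10.4 ± 2.35 CPM in CPN and 0 in each control library. The other markers at 1 CPM or more in a group, Xcr1 and Col1a1, had 2.09 and 1.20 CPM in CPN and 1.43 and 1.48 CPM in control. Flt3, Elane, Krt8 and Cdh5 had no count in any library, S100a9 had 1 count in all, and Ly6g had no entry in the tables. The part of such markers in the values of the 10 genes was not tested. Of 11 macrophage markers, Mertk was at 0 throughout and 10 were tested, with a summed level between 3834 and 4297 CPM in CPN and between 3516 and 4079 CPM in control. Adgre1, Fcgr1 (14.1-fold, or 53.3-fold without control 2) and Cd14 rose, and Spi1 and Tyrobp fell, the Spi1 call ending without CPN 2, CPN 3, control 1 or control 3 (edgeR adjusted p up to 0.135) and with the replicate block (0.0569). Osteoclast markers, which included Acp5, Ocstamp, Dcstamp and Atp6v0d2, gave 7 lower and 1 higher of 8 tested, with a summed level between 1080 and 1682 CPM in CPN and between 3915 and 4079 CPM in control. The higher one was Mmp9, at 257 ± 53.0 CPM in CPN, against 87.0 ± 19.0 CPM in control (edgeR adjusted p = 0.000424). Calcr and Itgb3 were too low to test. Of the tested macrophage and osteoclast markers, 50% and 100% were called, against 14.0% of all tested genes. Fcgr1, with 7 counts in control 1, entered the test through its CPN values.

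The controls differed among themselves over many genes, these included. Control 2 was the highest control for 6 of the 10 genes, namely Cd80, Cd86, Icosl, Cd274, Cd200 and Cd200r1, and control 3 for the other 4. Among genes with 1 highest control, control 2 held it for 38.5% of all tested genes, for 52.8% of genes higher in CPN and for 25.7% of genes lower in CPN. For Cd274 and Cd200r1 the coefficient of variation was 16.1% and 12% among CPN libraries, against 58.3% and 54.4% among control libraries. Genes whose mean over all 6 libraries lay within 25% of theirs had median coefficients of 20.1% and 24.9% in CPN and 19.6% and 26.5% in control. Those means were 40.8 and 21.2 CPM, above the control means of 7.32 and 12.35 CPM, so the control coefficients are set against genes of higher level. Scarcer genes varied more: near the 4.72 CPM of Cd80 the median coefficient in control was 48.1%. Cd47, Sirpa and Icam1 had coefficients between 11% and 25% in CPN and between 5.67% and 31.3% in control.

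Flanking genes, taken as the nearest protein-coding entries on each side, were called at a share near the background. Outside the 10 there were 18, of which 12 were tested and 2 passed, Cd200r4 and Dnmt3l, or 16.7% against 14.0% of all tested genes. These passing genes entered the test through their CPN values. Dnmt3l lies 5679 bases from Icosl and averaged 11.6 CPM in CPN, against 0.818 CPM in control (edgeR adjusted p = 0.0454). The Dnmt3l call ended with library totals alone (0.0522), under DESeq2 (adjusted p = 0.229), and without CPN 1, CPN 2, CPN 3 or control 1 (edgeR adjusted p up to 0.181), and without control 3 Dnmt3l was at least 35.6-fold higher. Adprh and Timmdc1 beside Cd80, D10Jhu81e beside Icosl, Plgrkt beside Cd274, Ric1 beside Pdcd1lg2, Gtpbp8 beside Cd200r1, Ift57 and Bbx beside Cd47, and Mrpl4 and Icam4 beside Icam1 did not pass, with edgeR adjusted p between 0.156 and 0.851. Casr and Ildr1 beside Cd86, Btla and Gm609 beside Cd200, and F830045P16Rik and Pdyn beside Sirpa had no count in any library.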

How the data were processed

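Counts per gene were deposited by the authors as 1 table per sample, as raw counts with no normalization. Per the labels' protocols, TRIzol-extracted RNA went into Lexogen QuantSeq libraries, and per the submitters' processing notes Bowtie2 and bedtools were used with mm10. The sources used here give no versions, annotation, strand setting or rule for multiple alignments. The 10 genes and all lists were chosen with earlier results of these data known.

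Groups follow the sample titles. In R 4.3.3, edgeR 4.0.16 tested CPN against control by quasi-likelihood on all 6 libraries, with TMM scaling and filterByExpr (minimum count 10, minimum total 15). The SE is the size of the log2 fold change divided by the square root of F. Genes at 0 throughout a group have a bound against 3 counts per library. Floors and bounds cover counting error only and take no account of the excess zeros. Named genes were the 10, up to 4 genes of smallest p per list, markers with a mean of at least 1 CPM, and flanking and overlapping genes. Named outside this rule, after their values were seen, were Irf1, Qpctl, Ptpn6, Ptpn11, Lrp1, Cd24a, Cd200r3, Tnfsf9, Havcr2, Cd83, Itgal, Spi1, S100a9 and the genes given as having no count. So were H2-Aa, H2-Eb1, H2-DMa, H2-K1, H2-T23, Tap1, Mmp9, Calcr and Itgb3. Positions are from GENCODE M21 (GRCm38, which is mm10). Depth was between 7957228 and 9713938 counts per library. Alternatives were other size factors, library totals, DESeq2 1.42.0, limma-voom (limma 3.58.1), other filters, the replicate block, removal of Rn45s, and libraries left out. Some listed genes are counted but not reported here by name. The test was checked on simulated counts drawn from the count model that it assumes, and whether those held the excess zeros was not tested. No 2 replicates of a group held the same values.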

Additional observations from a re-analysis of the deposited data

How the results depend on the processing

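Cd274 passed under all 15 alternatives run. All genes gave 1554 calls, 845 higher and 709 lower. Leaving out 1 library gave 884 to 1954 calls (525 to 1131 higher, 359 to 823 lower), lowest without control 3 and highest without control 2, and leaving out both control 3 and CPN 1 gave 446 (273 higher, 173 lower). Of the 10 genes, 1 to 4 passed with 1 library left out, with 1 left without CPN 1 or control 1 and 4 without control 2, and 1 passed without both control 3 and CPN 1. Log2 fold changes with 1 library left out ran from 1.02 to 1.84 for Cd200r1, 0.68 to 0.89 for Cd47, 1.86 to 4.04 (a bound) for Cd86, and -0.285 to 0.95 for Cd200, which was also below 0 without CPN 3 (-0.013). Cd80 ran from -2.01 (without CPN 1) to -0.92 (without CPN 3). Cd200r1 was at 1.18 with library totals alone and, without both control 3 and CPN 1, at 1.20 (edgeR adjusted p = 0.278), where Cd47 was at 0.80 (0.117). Library totals alone moved the median of all genes to -0.13 and the higher share of calls to 43.0%, against 54.4%; Cd274 and Cd47 passed there, and Cd47 was at 0.67 (edgeR adjusted p = 0.0384).

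Without both control 3 and CPN 1, Cd40, Tnfsf9, Havcr2, 4632428N05Rik, B2m, Tap1, Inpp5d, Cd24a, Jak2, Stat3, Ifnar2, Lck, Tyrobp, Spi1, Fcgr1 and Cd14 also lost their calls. Directions reversed for some genes that had not passed. With 1 library left out, Dok1 ranged from -0.389 to 0.0264 (above 0 without control 2), Icam4 from -0.287 (without CPN 3) to 3.30, Mrpl4 from -0.480 to 0.00866 (without CPN 3) and Timmdc1 from -0.0716 (without control 1) to 0.513. The cause was not tested.

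Same-numbered libraries did not deviate together (r between -0.0619 and 0.0336 over genes), and CPN 2 and control 3 correlated best with their own number while the other 4 libraries did not. A fit with the replicate number as a block gave 1326 calls (748 higher, 578 lower) and 3 of the 10 genes, Cd274 at 3.46, Cd200r1 at 1.41 and Cd47 at 0.80.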
